A study of Homo sapiens with 36 samples.

Results

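The complement proteases and regulators described here are 9 genes, C1R, C1S, C3, CFB, CFI, SERPING1, CD46, CD55 and CD59, taken by symbol from a named list and matched to Ensembl identifiers among the 45478 genes counted. All 9 matched 1 identifier each. A498 and 786-O, the human clear cell renal carcinoma lines used, gave 36 bulk RNA sequencing libraries. The groups were A498 cells labelled resistant to sunitinib, an inhibitor of VEGF and PDGF receptor kinases (selected at 2 µM), A498 parental cells, 786-O cells resistant to sunitinib (selected at 4 µM) and 786-O parental cells. Each of these 4 cell states was exposed for 24 h to one of the PD-L1 antibodies avelumab, durvalumab and atezolizumab, at 10 mg/mL as the labels give it, with 3 libraries per antibody. All libraries therefore carried an antibody, and untreated cells were not analysed here. Resistant cells were kept in sunitinib while they were selected, and whether the drug was still present during the antibody exposure is not given in the sources used here, nor is whether each resistant line is 1 clone or a mixed population.

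Complement is a cascade of plasma proteins that marks and lyses target cells. The serine proteases C1r and C1s start the classical pathway, C3 is the protein on which all pathways converge, and factor B supplies the protease of the alternative pathway convertase. C1 inhibitor (SERPING1) and factor I (CFI) are soluble brakes, while CD46, CD55 and CD59 protect the cell surface, and carcinoma cells are known to make several of these proteins themselves.

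Every cell state has its own batch label, so a resistant minus parental difference cannot be told apart from a batch difference. The 3 antibodies of a state share a batch. Nothing in the labels makes the 3 libraries of a group separate cultures, and p-values therefore reflect a spread that may be technical. In bulk RNA, fewer cells that express a gene and less of its RNA per cell cannot be told apart. The libraries labelled A498 resistant went against their label. HIF1A, the gene of the hypoxia-inducible factor 1 alpha protein, which 786-O is known to lack, stood at 8.40 to 9.73 CPM (a gene's count divided by the library total and scaled to a common size) in these 9 libraries, against 285 to 305 CPM in A498 parental. Its 786-O ranges were 7.92 to 9.24 CPM for resistant and 8.33 to 10.3 CPM for parental libraries. The difference labelled as A498 resistance is therefore given as labelled, and the same libraries are also set against both 786-O states. A change of the same direction in both comparisons is thus not shown to occur in 2 lines. Library totals ran from 19994882 to 58122896 counts. Of 8 renal tubule and clear cell carcinoma markers, 8 reached 1 CPM in A498 parental and 7 in each other state, where CA9 averaged under 0.02 CPM. Summed markers of other cell types moved with the states, without overlap between resistant and parental libraries of a line. The sums were low other than for the fibroblast markers. Summed leukocyte markers (8 genes) had 0.898 to 1.505 CPM across the libraries labelled A498 resistant, against 4.11 to 4.64 CPM in A498 parental, and 0.674 to 1.51 CPM in 786-O resistant, against 1.89 to 2.79 CPM in 786-O parental. Summed endothelial markers (4 genes) had 0.490 to 0.908 CPM across the libraries labelled A498 resistant, against 0.142 to 0.345 CPM in A498 parental, and 0.423 to 0.827 CPM in 786-O resistant, against 0.109 to 0.281 CPM in 786-O parental. Summed hepatocyte markers (4 genes) had 0.898 to 1.38 CPM across the libraries labelled A498 resistant, against 0.0334 to 0.244 CPM in A498 parental, and 1.13 to 1.91 CPM in 786-O resistant, against 0 to 0.152 CPM in 786-O parental. Summed fibroblast markers (5 genes) had 25.3 to 28.6 CPM across the libraries labelled A498 resistant, against 50.5 to 61.8 CPM in A498 parental, and 10.3 to 12.1 CPM in 786-O resistant, against 5.81 to 8.03 CPM in 786-O parental. The fibroblast sum was made of different genes: COL1A1 averaged 4.70 CPM across the libraries labelled A498 resistant and 55.7 CPM in A498 parental, while LUM averaged 16.2 CPM and 0.0142 CPM in these states, and LUM also exceeded COL1A1 in both 786-O states. The other sums were mixed too (means, resistant against parental). VWF led the endothelial rise (0.562 against 0.0571 CPM as labelled in A498, 0.464 against 0.00284 CPM in 786-O). PECAM1 was lower as labelled in A498 and KDR was lower in 786-O. In 786-O, CSF1R averaged 0.255 against 1.59 CPM, but CD14 0.434 against 0.192 CPM. The hepatocyte rise was mainly FGB as labelled in A498 (1.10 against 0.0271 CPM) and mainly APOA1 in 786-O (1.04 against 0.00944 CPM). The part of the markers in the results was not tested.

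The resistant minus parental difference took opposite directions in the 2 comparisons, A498 as labelled and 786-O, for 3 of the 8 genes tested in both. These were the proteases C1R and C1S and the component C3, which fell as labelled in A498 and rose in 786-O. As labelled in A498, 2 members were higher, 6 were lower and 1 did not pass the test, with a median log2 change of -1.62 over the members and 0.006 over all genes tested. Of all genes tested there, 44.2% were higher and 44.0% lower at an adjusted p under 0.05. In 786-O, 6 members were higher and 2 lower, and SERPING1 had too few counts to be tested, with a median log2 change of 1.05 over the 8 members tested and 0.033 over all genes. In that comparison 43.6% of all genes were called higher and 40.2% lower. A call alone is thus common in both comparisons, and the sizes below carry the description. All changes are log2 changes ± SE from edgeR's quasi-likelihood test, with p-values adjusted by Benjamini-Hochberg over all genes tested.

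**Figure D1:**
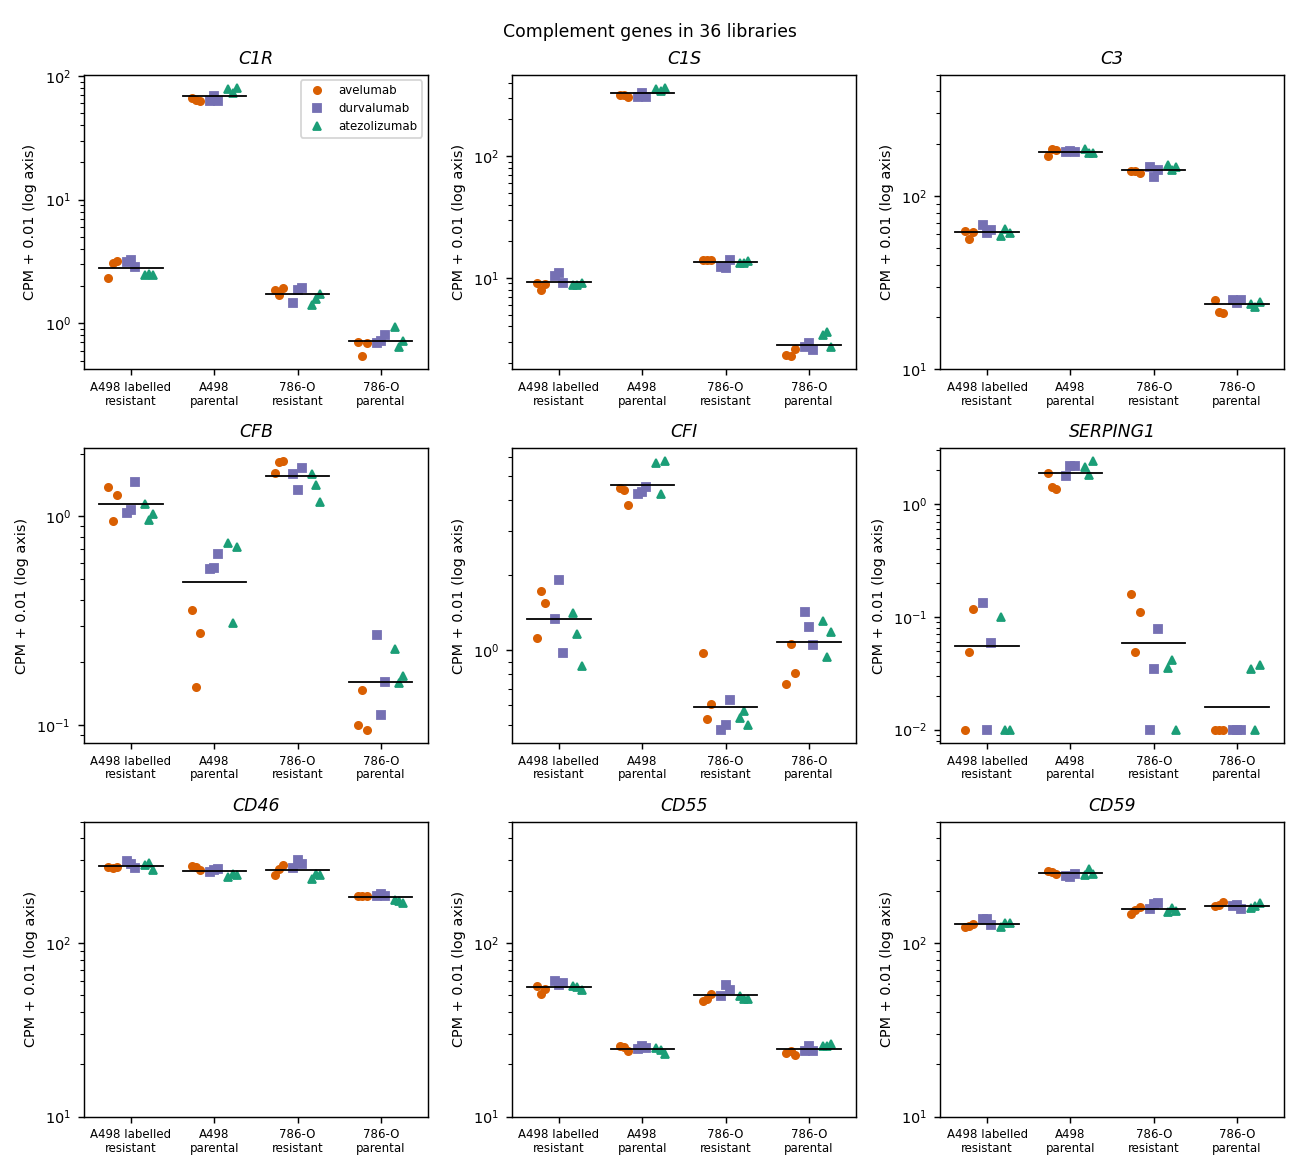
CPM of the 9 complement genes in each of the 36 libraries, on a log axis after adding 0.01, by cell state, with antibodies as colours and symbols and the mean of the 9 libraries of a state as a bar. C1R and C1S stood far above the other states in A498 parental, at means of 68.8 and 327 CPM, while CD46, CD55 and CD59 moved within a narrow range.

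C1R (ENSG00000159403.18, chromosome 12, 7080199 to 7092607 on the minus strand of GRCh38) and C1S (ENSG00000182326.15, chromosome 12, 6988259 to 7071032 on the plus strand) lie 9166 bases apart. C1s is cleaved by C1r and then cleaves C4 and C2. C1S had 7.95, 9.07 and 10.9 CPM (lowest, median and highest of 9 libraries) in the libraries labelled A498 resistant, against 303, 319 and 362 CPM in A498 parental. C1R had 2.31, 2.85 and 3.21 CPM across the libraries labelled A498 resistant, against 62.9, 66.8 and 80.0 CPM in A498 parental. No library of one state reached the range of the other for either gene. C1S was 37.5-fold lower (log2 change -5.23 ± 0.03, adjusted p = 7.65e-61) and C1R 26.0-fold lower (-4.70 ± 0.04, adjusted p = 1.97e-53).

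In 786-O both proteases were far below their level in A498 parental and moved the other way. C1S had 12.02, 13.7 and 14.0 CPM in 786-O resistant, against 2.27, 2.70 and 3.60 CPM in 786-O parental. C1R had 1.40, 1.72 and 1.93 CPM in 786-O resistant, against 0.533, 0.692 and 0.932 CPM in 786-O parental. The libraries of the 2 states did not overlap for either gene. C1S was 4.50-fold higher (2.17 ± 0.05, adjusted p = 1.88e-26) and C1R 2.25-fold higher (1.17 ± 0.11, adjusted p = 1.42e-11). Per kilobase of exon, the level of C1S exceeded that of C1R in every library. The ratio of C1S to C1R averaged 3.04 ± 0.383 for the libraries labelled A498 resistant, against 4.34 ± 0.129 for A498 parental (SD, n = 9 each). It was 7.20 ± 0.783 in 786-O resistant, above all libraries of 786-O parental, where it was 3.62 ± 0.664. C1R shares 11.4% of its exonic length with C1RL, a neighbouring gene on the same strand. The C1R values are therefore uncertain where the counting split such reads. C1RL averaged 6.35 CPM in 786-O parental and 10.97 CPM in 786-O resistant, above C1R in both and moving the same way. C1RL was also above C1R in the libraries labelled A498 resistant, but below it in A498 parental, at 20.8 CPM. The low C1R values outside A498 parental, and the C1R rise in 786-O, are thus uncertain. C1S shares 3.54% of its exonic length with EMG1, which averaged from 89.3 CPM in 786-O resistant to 124 CPM in 786-O parental. EMG1 was thus far above C1S outside A498 parental, and the low C1S values there are uncertain. How much such shared reads add to C1R or C1S was not tested.

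C3 (ENSG00000125730.17, chromosome 19, 6677704 to 6730562, minus strand), whose cleavage deposits C3b on targets, followed the same opposite directions with smaller size in A498. It had 56.3, 62.3 and 67.8 CPM across the libraries labelled A498 resistant, against 169, 179 and 187 CPM in A498 parental. It had 129, 141 and 150 CPM in 786-O resistant, against 21.2, 24.2 and 25.3 CPM in 786-O parental. The states did not overlap in either comparison. C3 was 3.08-fold lower as labelled in A498 (-1.62 ± 0.03, adjusted p = 7.28e-43) and 5.53-fold higher in 786-O (2.47 ± 0.03, adjusted p = 2.06e-34). Among the 4 states its level was highest in A498 parental, followed by 786-O resistant, the libraries labelled A498 resistant and 786-O parental, with no overlap between neighbours in that order.

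CFB (ENSG00000243649.9, chromosome 6, 31945650 to 31952084, plus strand), the gene of factor B, was higher on the resistant side in both comparisons, at low counts. It had 0.940, 1.06 and 1.45 CPM across the libraries labelled A498 resistant, against 0.142, 0.550 and 0.739 CPM in A498 parental. It had 1.16, 1.59 and 1.82 CPM in 786-O resistant, against 0.0854, 0.150 and 0.260 CPM in 786-O parental. The states did not overlap in either comparison. CFB was 2.40-fold higher as labelled in A498 (1.26 ± 0.17, adjusted p = 3.26e-09) and 9.30-fold higher in 786-O (3.22 ± 0.16, adjusted p = 2.14e-18), where it had 586 counts in the 9 resistant libraries and 54 in the 9 parental ones. CFB shares 45.5% of its exonic length with other genes on the same strand, mainly the readthrough gene AL645922.1, which was not analysed here, so its values are uncertain.

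The 250 bases before the listed RefSeq start of CFB (GRCh38.p14, chr6:31945845-31946094, plus strand), and those before the 2 listed starts of C1R (chr12:7092446-7092695 and chr12:7091894-7092143, minus strand), are shown because CFB rose and C1R fell as labelled in A498, and because they had the largest and the smallest rise of C1R, C1S, C3 and CFB in 786-O. Capitals mark matches to 4 motifs searched on both strands: the interferon-stimulated response element core (a pair of GAAA blocks with any 2 bases between them), the STAT site TTCNNNGAA, an NF-kB site and TATAAA.
CFB: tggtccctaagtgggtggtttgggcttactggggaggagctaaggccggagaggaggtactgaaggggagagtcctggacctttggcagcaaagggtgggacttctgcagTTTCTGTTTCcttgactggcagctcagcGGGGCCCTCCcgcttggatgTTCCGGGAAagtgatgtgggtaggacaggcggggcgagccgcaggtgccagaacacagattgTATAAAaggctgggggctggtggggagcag
C1R start 1: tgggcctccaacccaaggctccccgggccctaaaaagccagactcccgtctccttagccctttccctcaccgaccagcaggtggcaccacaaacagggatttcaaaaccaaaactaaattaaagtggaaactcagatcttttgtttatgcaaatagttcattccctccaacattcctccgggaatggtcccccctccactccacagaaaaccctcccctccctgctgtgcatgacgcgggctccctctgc
C1R start 2: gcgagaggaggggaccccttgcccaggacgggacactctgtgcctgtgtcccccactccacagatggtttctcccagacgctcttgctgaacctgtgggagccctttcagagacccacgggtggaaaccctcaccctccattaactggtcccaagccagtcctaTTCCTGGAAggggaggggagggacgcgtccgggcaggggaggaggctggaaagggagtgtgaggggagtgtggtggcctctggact
The CFB window held all 4 motifs, with the match to the response element core on the opposite strand ending 130 bases before the start, and the STAT, NF-kB and TATAAA matches ending 83, 102 and 24 bases before it. Start 1 of C1R held none of them and start 2 a STAT site ending 77 bases before the start. Over 35116 promoter windows of the same length, 3.02% held the response element core, 6.57% the STAT site, 9.96% the NF-kB site and 10.7% TATAAA. The windows of CFI, CD46 and CD55 held none, and the first 2 of 4 listed CD59 windows held a STAT site. These are matches of letters and were set against no binding data. Promoter windows were matched for 6 of the 9 genes, which leaves out C1S, C3 and SERPING1.

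**Figure D2:**
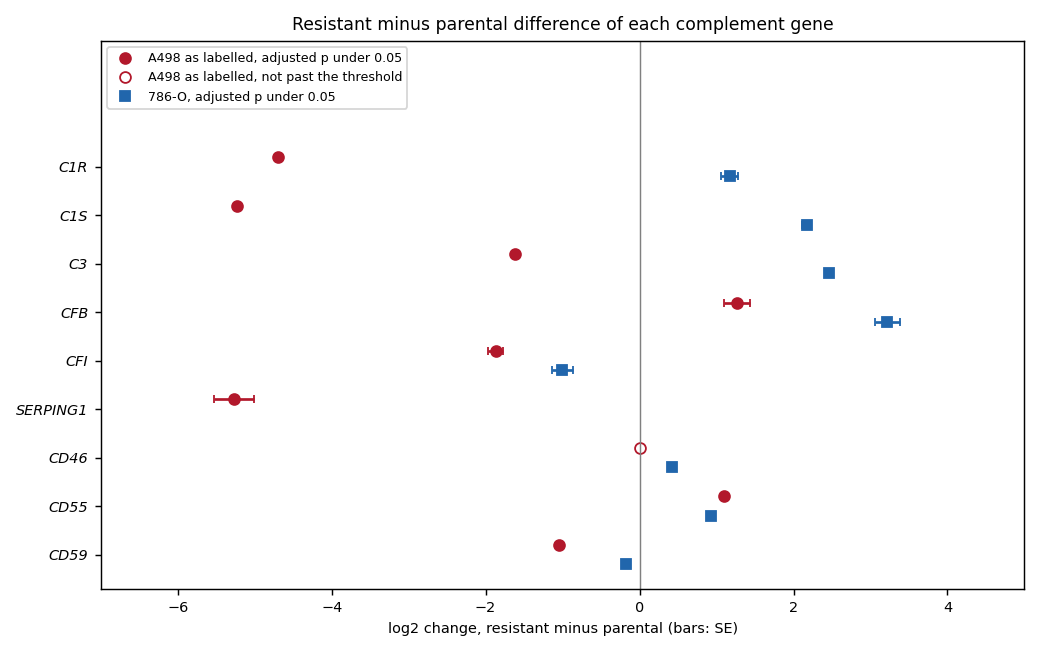
Resistant minus parental log2 change of each complement gene, with SE as bars, for A498 as labelled (circles) and 786-O (squares). C1R, C1S and C3 lie left of 0 in A498 as labelled and right of 0 in 786-O, CFB and CD55 lie right of 0 in both, and SERPING1 was not tested in 786-O.

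SERPING1 (ENSG00000149131.16, chromosome 11, 57597387 to 57614853, plus strand) encodes the serpin that inactivates C1r and C1s. It had 0, 0.0392 and 0.124 CPM across the libraries labelled A498 resistant, against 1.34, 1.87 and 2.38 CPM in A498 parental. Expressed as counts over the 9 libraries, these were 11 and 573. The ratio of summed counts per total was 0.0265 (exact 95% counting interval 0.0132 to 0.0478), and edgeR gave -5.27 ± 0.26 (adjusted p = 9.19e-24). In 786-O it was counted 19 times in resistant and 2 times in parental libraries, a ratio of 8.92 (interval 2.15 to 79.0). The interval covers counting error only. The ranges of the 2 states overlapped, at 0 to 0.149 CPM in resistant and 0 to 0.0272 CPM in parental libraries.

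CFI (ENSG00000205403.13, chromosome 4, 109740694 to 109802179, minus strand) encodes factor I, a protease that cleaves C3b and C4b with the help of cofactors such as CD46. It was lower on the resistant side in both comparisons. It had 0.858, 1.32 and 1.90 CPM across the libraries labelled A498 resistant, against 3.82, 4.39 and 5.72 CPM in A498 parental. It had 0.470, 0.526 and 0.960 CPM in 786-O resistant, against 0.722, 1.05 and 1.42 CPM in 786-O parental. The A498 states did not overlap, whereas in 786-O 1 resistant library, avelumab replicate 1, lay inside the parental range. CFI fell by 1.87 ± 0.10 on the log2 scale as labelled in A498 (adjusted p = 6.25e-22) and by 1.00 ± 0.14 in 786-O (adjusted p = 7.12e-08). It shares 32.0% of its exonic length with AC126283.2 on the same strand, a gene not analysed here, so its values are uncertain.

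The 3 membrane regulators had smaller differences. CD55 (ENSG00000196352.15, chromosome 1, 207321376 to 207386804, plus strand), the decay-accelerating factor that dissociates C3 convertases, rose in both comparisons. It had 51.1, 56.2 and 60.1 CPM across the libraries labelled A498 resistant, against 23.0, 24.9 and 25.4 CPM in A498 parental. It had 46.1, 49.4 and 57.5 CPM in 786-O resistant, against 22.8, 23.9 and 26.1 CPM in 786-O parental. The states did not overlap, and the changes were 1.10 ± 0.03 as labelled in A498 (adjusted p = 7.99e-35) and 0.92 ± 0.03 in 786-O (adjusted p = 4.28e-23).

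CD59 (ENSG00000085063.16, chromosome 11, 33703010 to 33736491, minus strand) blocks assembly of the membrane attack complex. It had 124, 128 and 137 CPM across the libraries labelled A498 resistant, against 240, 249 and 266 CPM in A498 parental, without overlap. It had 146, 156 and 170 CPM in 786-O resistant, against 157, 164 and 171 CPM in 786-O parental, with overlapping ranges. It fell by 1.04 ± 0.02 on the log2 scale as labelled in A498 (adjusted p = 4.65e-38) and by 0.17 ± 0.03 in 786-O (adjusted p = 3.26e-07). Over 25 alternative settings the 786-O change ran from -0.19 to -0.06 and passed in each, so its size depends on the processing. It shares 6.07% of its exonic length with AL049629.2, which averaged at most 0.0231 CPM in any state.

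CD46 (ENSG00000117335.19, chromosome 1, 207752057 to 207795513, plus strand), the membrane cofactor for factor I, lies 365.3 kb from CD55. It had 262, 274 and 295 CPM across the libraries labelled A498 resistant, against 241, 262 and 276 CPM in A498 parental, with overlapping ranges. The change as labelled in A498 was 0.01 ± 0.02 (adjusted p = 0.694), and with raw library totals it was called at 0.10 (adjusted p = 5.59e-05), a scaling that shifted the median of all genes by about the same size, to 0.09. In 786-O CD46 had 233, 266 and 300 CPM in resistant cells, against 171, 187 and 190 CPM in parental cells, without overlap, and was 1.34-fold higher (0.42 ± 0.03, adjusted p = 3.29e-16).

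Per kilobase of exon, C1S had the highest level of the 9 genes in A498 parental, at 50.6 ± 3.44 CPM per kb, followed by CD46 at 29.8 ± 1.35, CD59 at 24.3 ± 0.794, C3 at 21.6 ± 0.659 and C1R at 11.7 ± 1.14 (SD, n = 9). CD46 led elsewhere, at 31.8 ± 1.21 CPM per kb for the libraries labelled A498 resistant, and at 30.3 ± 2.53 for 786-O resistant against 21.0 ± 0.783 for 786-O parental. C1S took rank 5 in those states, at 1.43 ± 0.138 CPM per kb for the libraries labelled A498 resistant, and at 2.07 ± 0.115 for 786-O resistant against 0.430 ± 0.0690 for 786-O parental. C3 took rank 2 in 786-O resistant, at 16.9 ± 0.733 CPM per kb, against rank 4 in 786-O parental, at 2.84 ± 0.183. Within a state, neighbouring ranks were not tested.

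Under each antibody taken alone, 8 of the 9 members were called as labelled in A498, CD46 being the one that was not. The share of all genes called was 79.1% under atezolizumab, 80.4% under avelumab and 79.7% under durvalumab. For CFB the change was 0.73 ± 0.29 under atezolizumab (adjusted p = 0.0199), 2.13 ± 0.31 under avelumab and 0.93 ± 0.27 under durvalumab. This call for atezolizumab was lost without A498 parental atezolizumab replicate 2 (0.43, adjusted p = 0.171) and without A498 labelled resistant atezolizumab replicate 1 (0.66, adjusted p = 0.0665). In 786-O, 8 of 8 members were called under atezolizumab and 7 under each of the others, where 71.9% of all genes were called under atezolizumab, 73.1% under avelumab and 71.2% under durvalumab. CFI changed by -0.46 ± 0.23 under avelumab (adjusted p = 0.0752), and by -0.77 (adjusted p = 0.00767) without 786-O resistant avelumab replicate 1. It was also called without 786-O parental avelumab replicate 1 (-0.56, adjusted p = 0.0486). CD59 changed by -0.08 ± 0.04 under durvalumab (adjusted p = 0.105).

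The difference of the 2 changes, 786-O minus A498 as labelled, was tested over all 36 libraries and passed for all 9 members, higher for 8 and lower for CD55. Of all genes tested, 39.8% were higher and 40.6% lower. The difference was 7.39 ± 0.06 for C1S, 5.86 ± 0.11 for C1R and 4.08 ± 0.04 for C3. The difference was -0.19 ± 0.04 for CD55 (adjusted p = 6.89e-05), so that its rise was a little larger as labelled in A498. Since it uses the libraries labelled A498 resistant, this difference rests on libraries that went against their label.

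In A498 parental, 8 of the 9 genes were higher than in 786-O parental and none was lower, while 41.7% of all genes were higher and 43.5% lower. C1S was 113-fold higher (6.82 ± 0.04, adjusted p = 7.81e-71) and C1R 93.3-fold higher (6.54 ± 0.05, adjusted p = 3.32e-63). C3 was 7.29-fold higher (2.87 ± 0.03), CFI 4.07-fold (2.02 ± 0.10) and CFB 2.76-fold (1.46 ± 0.23). CD46 and CD59 were 1.36-fold and 1.46-fold higher. CD55 differed by -0.05 ± 0.03 (adjusted p = 0.114), with overlapping ranges, and passed at -0.07 (adjusted p = 0.0439) without A498 parental atezolizumab replicate 1. SERPING1 had 573 counts in the 9 A498 parental libraries and 2 in those of 786-O parental, a ratio of 331 (exact 95% counting interval 91.1 to 2736).

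The libraries labelled A498 resistant lay nearer to 786-O resistant than to A498 parental in every member other than CD46, counted by the size of the log2 change, without a test of that order. Against 786-O resistant, 3 members were higher, 4 were lower and 2 did not pass, with 32.8% of all genes higher and 33.1% lower. C3 was 2.31-fold lower (-1.21 ± 0.03, adjusted p = 5.68e-39) and CFI 2.25-fold higher (1.17 ± 0.15, adjusted p = 5.69e-10). C1R differed by 0.69 ± 0.08, C1S by -0.56 ± 0.04, CFB by -0.48 ± 0.12, CD59 by -0.31 ± 0.03 and CD55 by 0.14 ± 0.03, all called. CD46 (0.05 ± 0.02, adjusted p = 0.0941) and SERPING1 (11 against 19 counts) did not pass. CD46 passed with raw library totals (0.07, adjusted p = 0.0055) and without any one of 4 libraries (adjusted p from 0.024 to 0.0424), namely A498 labelled resistant atezolizumab replicate 3 and durvalumab replicate 3, and 786-O resistant avelumab replicate 3 and durvalumab replicate 2. Against 786-O parental, 7 were higher, 1 was lower and CFI did not pass (0.15 ± 0.13, adjusted p = 0.305), with 41.2% of all genes higher and 38.3% lower. These changes were 1.84 ± 0.09 for C1R, 1.59 ± 0.05 for C1S, 1.24 ± 0.03 for C3, 2.72 ± 0.19 for CFB and 1.04 ± 0.03 for CD55. In this comparison C1R, C1S and C3 were higher, the direction seen within 786-O. The SERPING1 call (11 against 2 counts) was lost without A498 labelled resistant atezolizumab replicate 1 (adjusted p = 1.00).

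The antibodies differed in few of these genes. By an edgeR test over the 3 antibodies within a state, C1R (adjusted p = 0.0003) and C1S (adjusted p = 0.0017) passed in A498 parental. There 3.83% of all genes passed, 6 members had an unadjusted p under 0.05 and DESeq2 called 3 members. No member passed in the libraries labelled A498 resistant, with 0.0114% of all genes called, or in 786-O resistant, with 0.741%. In each of these 2 states edgeR gave 2 members an unadjusted p under 0.05 and DESeq2 called 0. In 786-O parental no member passed, 3 had an unadjusted p under 0.05 and DESeq2 called 0, with 3.52% of all genes called by edgeR.

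C1R in A498 parental had 66.8, 63.5 and 62.9 CPM under avelumab and 63.0, 69.0 and 63.1 CPM under durvalumab, against 77.9, 72.9 and 80.0 CPM under atezolizumab. The atezolizumab libraries lay above all others. C1R was 1.20-fold lower under avelumab than under atezolizumab (-0.26 ± 0.04, adjusted p = 0.000534) and 1.19-fold lower under durvalumab (-0.26 ± 0.04, adjusted p = 0.00082). C1S had 319, 314 and 308 CPM under avelumab and 303, 328 and 307 CPM under durvalumab, against 358, 341 and 362 CPM under atezolizumab, again without overlap. The changes of C1S were -0.18 ± 0.04 under avelumab (adjusted p = 0.00346) and -0.19 ± 0.04 under durvalumab (adjusted p = 0.00271), and the durvalumab call was lost without A498 parental durvalumab replicate 1 (adjusted p = 0.0509). The share of all genes called lower was 1.68% for avelumab and 1.02% for durvalumab against atezolizumab.

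CD46 in A498 parental had 276, 272 and 264 CPM under avelumab, against 241, 250 and 248 CPM under atezolizumab, without overlap. It was higher by 0.13 ± 0.03 (adjusted p = 0.0300), in a comparison with 1.71% of all genes higher. This call was lost in a fit to all 36 libraries (adjusted p = 0.123) and without any one of 5 libraries (adjusted p from 0.058 to 0.186), namely A498 parental atezolizumab replicates 1 and 3, avelumab replicates 1 and 2 and durvalumab replicate 1. CFB in A498 parental had 0.345, 0.142 and 0.268 CPM under avelumab and 0.550, 0.554 and 0.653 CPM under durvalumab, against 0.739, 0.301 and 0.704 CPM under atezolizumab. The avelumab minus atezolizumab change was -1.19 ± 0.38 (adjusted p = 0.0766) and passed without A498 parental atezolizumab replicate 2 (-1.49, adjusted p = 0.0205) or avelumab replicate 1 (-1.56, adjusted p = 0.0471). Between durvalumab and avelumab no member passed in A498 parental by edgeR, 1 had an unadjusted p under 0.05 and DESeq2 called 0, with 0.0599% of all genes called by edgeR.

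In 786-O parental, C1S had 2.32, 2.27 and 2.59 CPM under avelumab, against 3.36, 3.60 and 2.72 CPM under atezolizumab, without overlap. It was lower by edgeR (-0.45 ± 0.13, adjusted p = 0.0466), where 1.63% of all genes were lower. The call was lost with DESeq2 (adjusted p = 0.109), with raw library totals (adjusted p = 0.0545) and without any one of 6 libraries (adjusted p from 0.0643 to 0.213), namely atezolizumab replicates 1 and 2, avelumab replicates 1, 2 and 3 and durvalumab replicate 2.

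**Figure D3:**
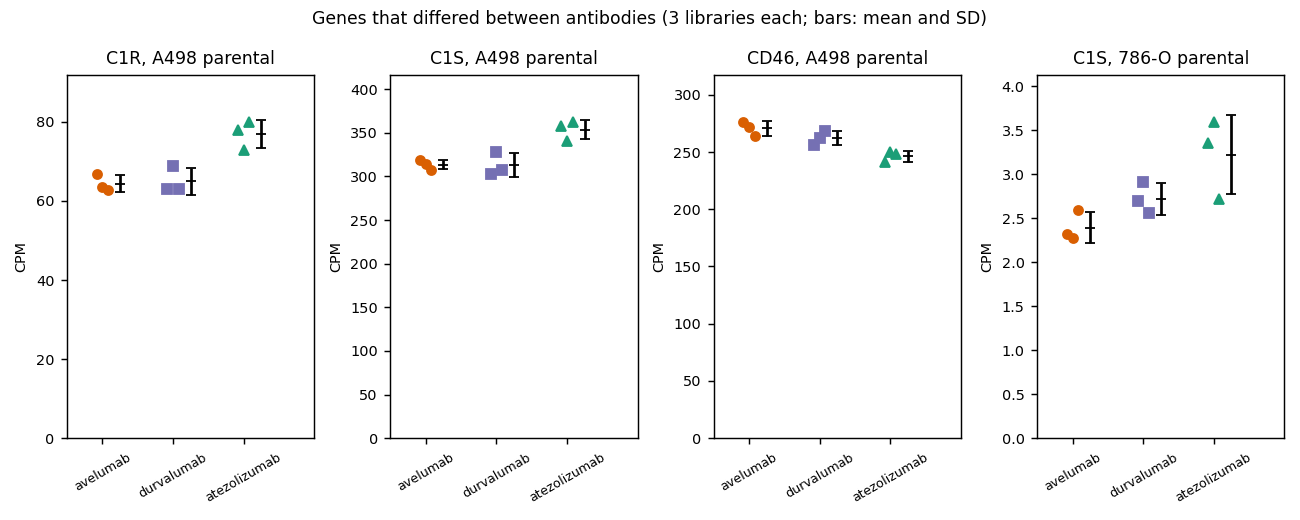
CPM of 4 gene and state pairs in which an antibody pair differed, with each of the 3 libraries per antibody as a point and the mean and SD as a bar. In A498 parental the atezolizumab libraries lie highest for C1R and C1S and lowest for CD46, and in 786-O parental they lie highest on average for C1S.

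Of a wider list of 47 complement genes, 46 were in the table and 15 reached a mean of 1 CPM in at least 1 state. The other 31 stayed below that level, 9 of them with 0 counts. As labelled in A498, 18 were tested, of which 6 were higher, 11 lower and 1 not called, with a median of -0.93, beside 44.2% of all genes higher and 44.0% lower. In 786-O, 15 were tested, of which 9 were higher, 3 lower and 3 not called, with a median of 0.68, beside 43.6% of all genes higher and 40.2% lower.

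The largest rise among the named genes in both comparisons was that of C4BPB, the beta chain of C4b-binding protein, a soluble regulator of the classical pathway. C4BPB averaged 6.88 ± 0.712 CPM over the libraries labelled A498 resistant, against 0.0608 ± 0.0451 CPM in A498 parental (SD, n = 9 each; log2 change 6.72 ± 0.17, adjusted p = 4.13e-35). It averaged 3.05 ± 0.406 CPM in 786-O resistant and 0.0302 ± 0.0233 CPM in 786-O parental (6.49 ± 0.18, adjusted p = 2.30e-25). Its partner chain gene C4BPA did not reach 1 CPM in any state.

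CLU, the gene of clusterin, which restrains terminal complex assembly, rose in both comparisons, by 0.37 ± 0.03 as labelled in A498 and by 1.93 ± 0.03 in 786-O. ITGB2, the shared beta chain of complement receptors 3 and 4, also rose in both, by 1.24 ± 0.04 and 2.16 ± 0.03. ITGAX, an alpha chain that pairs with it, fell by 3.92 ± 0.09 on the log2 scale as labelled in A498 and rose by 1.81 ± 0.13 in 786-O. The terminal pathway gene C8G and the factor D gene CFD took the directions of C1R and C1S, with -2.41 ± 0.10 and -0.80 ± 0.09 as labelled in A498 and 1.74 ± 0.15 and 1.06 ± 0.12 in 786-O. C1RL, a C1r-like protease gene, did likewise, at -1.05 ± 0.04 and 0.68 ± 0.05, and is uncertain because its exons overlap those of C1R. C2, the classical pathway protease cleaved by C1s, changed by -0.36 ± 0.11 as labelled in A498 (adjusted p = 0.00373) and by 0.16 ± 0.12 in 786-O (adjusted p = 0.228), and is uncertain, with 38.7% of its exonic length shared with other genes. C5 rose by 0.21 ± 0.06 and 0.44 ± 0.05. MASP2, a lectin pathway protease gene, rose by 1.29 ± 0.19 as labelled in A498 and changed by -0.21 ± 0.14 in 786-O (adjusted p = 0.15). ITGAM, the alpha chain of complement receptor 3, fell by 3.72 ± 0.16 on the log2 scale as labelled in A498 and changed by -0.05 ± 0.27 in 786-O (adjusted p = 0.878). The C5a receptor gene C5AR1 fell by 2.57 ± 0.21 on the log2 scale as labelled in A498 and was not tested in 786-O. ITGAM, ITGAX, ITGB2 and C5AR1 are typical of leukocytes, and the leukocyte gene PTPRC reached at most 0.0764 CPM in A498 parental. The anaphylatoxin receptor gene C3AR1 rose by 0.84 ± 0.10 as labelled in A498 and fell by 0.59 ± 0.11 in 786-O.

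**Figure D4:**
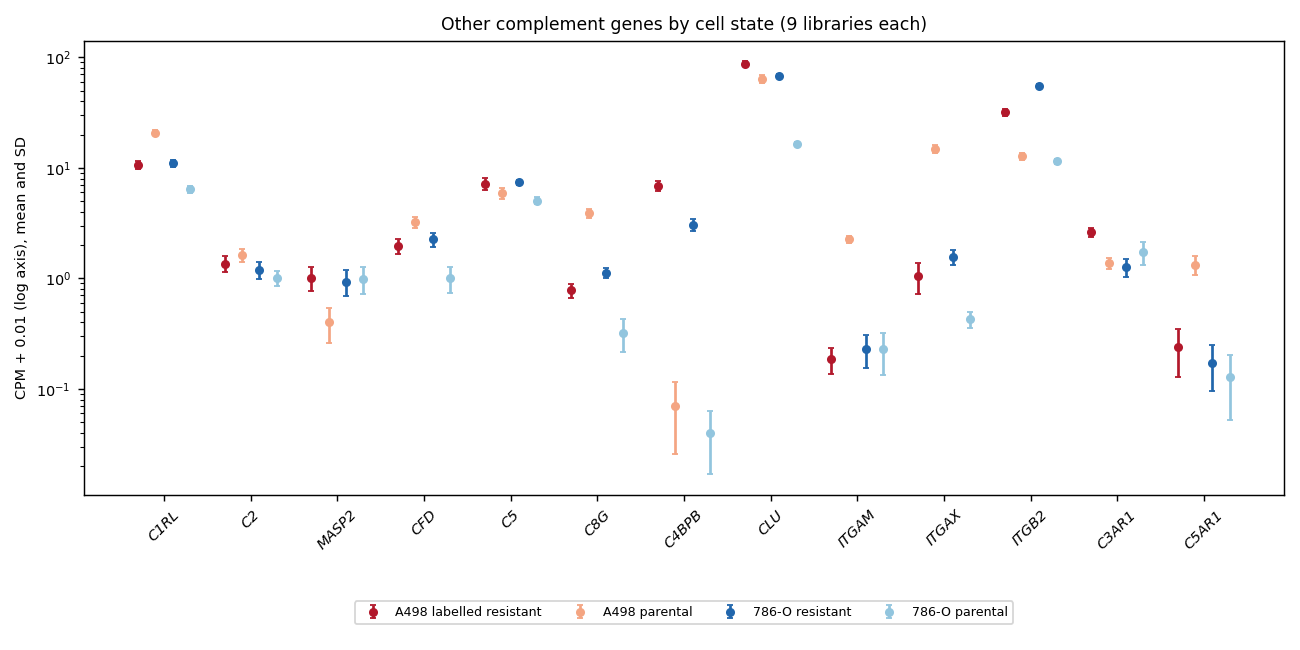
Mean CPM (plus 0.01, log axis) with SD over the 9 libraries of each cell state, for complement genes of the wider list that reach a mean of 1 CPM in a state, as far as they are reported. C4BPB lies near 0 in both parental states and at 6.88 and 3.05 CPM in the 2 states labelled resistant, and ITGB2 lies above the parental level in both.

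Of 14 inducers of complement genes, such as cytokine receptors and their transcription factors, 6 were higher, 5 lower and 3 not called as labelled in A498, with a median of -0.04, and 9 were higher, 2 lower and 3 not called in 786-O, with a median of 0.21. Of 27 genes of GPI anchor synthesis and attachment, which fix CD55 and CD59 to the membrane, 18 were higher, 8 lower and 1 not called as labelled in A498, with a median of 0.33. In 786-O 13 were higher, 10 lower and 4 not called, with a median of -0.01. The same shares of all genes apply, 44.2% higher and 44.0% lower as labelled in A498, and 43.6% higher and 40.2% lower in 786-O.

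The genes with the most similar pattern were ranked by the root mean square difference of centred log2(CPM + 0.1) over the 12 group means, among 15367 genes. Nearest to C1S were PREX1 (0.124), FBXL16 (0.338) and SORCS2 (0.34), with C1R at rank 15 (0.477). PREX1 averaged 0.940 CPM over the libraries labelled A498 resistant, 42.3 CPM in A498 parental, 1.39 CPM in 786-O resistant and 0.244 CPM in 786-O parental. Nearest to C3 were ADAMTS13 (0.157), DNER (0.239) and PLA2G4C-AS1 (0.251). Nearest to CD55 were EPM2A (0.0723), MBP (0.0844) and TIRAP (0.086). The groups share depth and batch within a state, and the ranking is a description.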

How the data were processed

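Gene expression was measured by RNA sequencing of 36 libraries in 12 groups of 3. The deposited values are raw, unnormalized gene counts, 1 column a library. Per the submitters' processing notes, reads were handled with HISAT2 2.1.0, featureCounts 1.6.3, Trimmomatic 0.36.6 and bcl2fastq 2.19.0 on GRCh38. Per the labels' protocols the kit was stranded and selected polyadenylated RNA. Which annotation and strand setting the counting used is not given in the sources used here, so a named gene with 10% or more of its exonic bases in another gene is marked as uncertain. Positions and exonic lengths came from GENCODE 29 on GRCh38, promoter windows from RefSeq on GRCh38.p14.

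Counts were tested with edgeR 4.0.16 (robust quasi-likelihood, TMM scaling, filterByExpr with a count minimum of 10 and a total minimum of 15) in R 4.3.3, with DESeq2 1.42.0 as an alternative. Adjusted p-values (Benjamini-Hochberg, threshold 0.05) covered all genes tested. The model held group means, over 18 libraries for a line, 9 for antibodies within a state and 36 across lines. The code was tested on simulated data. CPM used raw library totals, 19994882 to 58122896 counts. Without molecular identifiers, intervals cover counting error only. No library was a copy of another of its group: chi-square per gene ran from 1.63 to 17.9 over 36 pairs within groups. Pairs across groups were not compared.

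The 9 members, the lists and the rule for named genes (the members, the wider complement genes reaching 1 CPM in a state, and the 3 genes nearest to C1S, C3 and CD55) were chosen with earlier results of these data known. Some genes of the wider list are counted in it but not reported here. VTN, C4B and C4BPA were named after their values were seen. Alternatives were RLE scaling, raw totals, no filter, a strict filter (minimum 50), a replicate block, other libraries in the fit, DESeq2, and each library left out.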

Additional observations from a re-analysis of the deposited data

Results flagged for a closer look

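A498 as labelled and 786-O differed in their resistant minus parental change, by an interaction test in edgeR over all 36 libraries, for each of the 9 genes, in a test that called 39.8% of all genes higher and 40.6% lower. The log2 change in 786-O minus that in A498 as labelled was 7.39 ± 0.06 for C1S, 5.86 ± 0.11 for C1R and 4.08 ± 0.04 for C3. It was 7.92 ± 1.21 for SERPING1, which rests on 2 counts in 786-O parental, and 1.94 ± 0.26 for CFB. It was 0.86 ± 0.03 for CD59, 0.85 ± 0.18 for CFI, 0.40 ± 0.03 for CD46 and -0.19 ± 0.04 for CD55. Adjusted p ran from 6.28e-64 for C1S to 6.89e-05 for CD55. All 9 use the libraries labelled A498 resistant, whose HIF1A level went against their label, and cell state and batch cannot be told apart.

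CFI in 786-O resistant avelumab replicate 1 stood apart from the other 8 libraries of its state. It reached 0.960 CPM from 45 counts, against 0.619 CPM in the next library and a median of 0.526 CPM. This was the only such library among 36 sets of 9 libraries, 1 set per gene and state, and chance flags about 1 set in 20.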

How the results depend on the processing

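Of 435 recomputed counts of members called, 430 stayed within 1.5 times the reported count. The exceptions concern the antibodies. In 786-O resistant, where the reported count was 0, 1 member passed with no filter, with a replicate block and in one fit to all 36 libraries, and 0 to 2 passed with 1 library left out, the highest without durvalumab replicate 1. In 786-O parental, also at 0, 1 passed in the fit to all 36 libraries. Of 4747 recomputed changes of single members, 4702 kept their side of the threshold, 25 newly passed and 20 no longer passed. None of the called changes turned its sign, and a turn of sign where neither value passed was not counted. The cause of these moves was not tested.

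Same-numbered libraries deviated together little over all states: correlations ran from -0.295 to 0.319, with 6 of 36 pairs over 0.1. In 786-O resistant they ran from -0.127 to 0.174, with 3 of 9 pairs over 0.1. Whether the numbers pair libraries was not tested further. With the replicate block the C1S call in 786-O parental (adjusted p = 0.0792) and the CD46 call in A498 parental (adjusted p = 0.0597), both avelumab minus atezolizumab, were lost. Raw totals moved the median of all genes in 786-O to 0.14, against 0.03 as reported, and that of the libraries labelled A498 resistant against 786-O parental to 0.19. Under raw totals CFI passed against 786-O parental (0.30, adjusted p = 0.0358).

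Counts over all genes for the antibodies depended on the settings. In A498 parental 704 genes passed, 1099 with no filter, 361 in the fit to all 36 and 233 to 892 with 1 library left out. In 786-O resistant 140 passed, 692 with no filter, 347 with the block, 626 in the fit to all 36, 307 with DESeq2 and 71 to 1160 with 1 library left out. In 786-O parental 618 passed, 1400 with no filter, 300 with the block and 299 to 1235 with 1 library left out. In the libraries labelled A498 resistant 2 passed, 50 with no filter, 0 in the fit to all 36 and 0 to 89 with 1 library left out. SERPING1 rests on few counts outside A498 parental, as does CFB in both parental states (144 counts in A498, 54 in 786-O), so small differences in them were not detectable at this depth.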

Other observations

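Among the other complement genes, CLU, VTN and C4B differed between antibodies in A498 parental by the edgeR test over the 3 antibodies, where 3.83% of all genes passed. For avelumab minus atezolizumab in that state, 16 genes of the wider list were tested. Of these 3 were lower and 13 not called, beside 1.68% of all genes lower. VTN had 140 and C4B 113 counts over the 9 A498 parental libraries, and both were named after their values were seen. The alternative settings were not run for these genes. Against atezolizumab, CLU changed by -0.22 ± 0.04 under avelumab (adjusted p = 0.00346) and by -0.25 ± 0.04 under durvalumab (adjusted p = 0.00121). VTN, the gene of vitronectin, a regulator of the terminal complex, whose values are uncertain for the 13.6% of exonic length that AC002094.3 shares, and C4B, a near copy of C4A whose counts are uncertain, had avelumab minus atezolizumab changes of -1.64 ± 0.34 (adjusted p = 0.0059) and -1.95 ± 0.37 (adjusted p = 0.003). VTN had 239 counts over the 9 libraries of 786-O resistant and 9 over those of 786-O parental (log2 change 5.08 ± 0.37, adjusted p = 1.05e-13), and 30 over the libraries labelled A498 resistant and 140 over A498 parental (-1.81 ± 0.31, adjusted p = 7.82e-07).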
